A study of Mus musculus with 2 samples.

Results

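The Klk1b genes are a tandem family of serine protease genes on mouse chromosome 7, and 10 of them are described here: Klk1b3, Klk1b4, Klk1b5, Klk1b8, Klk1b9, Klk1b16, Klk1b21, Klk1b24, Klk1b26 and Klk1b27. They were chosen by name, and each name was found on the array with 1 probe. Another 2 probes carry an older name of Klk1b26, Egfbp2, and are described apart. They belong to the 21346 genes whose signal was clearly above background on 1 or both arrays, and all 10 are among the 18745 with such a signal on both, which are called measured here. Expression was measured in cells that had been collected from dispersed submandibular glands with magnetic beads against EpCAM, a surface protein of epithelial cells. Both samples came from female mice, labelled C57BL/6 and named C57BL/6N in the study's methods. The young sample was from an age of 9 weeks and the aged sample from 24 months, with 1 array per age on the same slide. Young mice were bought from a breeder and aged mice came from the animal facility of a research centre, so origin and age cannot be told apart, and the sources used here do not say whether 1 mouse or a pool of mice was used. With a single array for each age, the differences below have no replicates behind them, and the ages were not tested against each other. The Epcam probe had a signal of 1778 in the young and 1573 in the aged sample, and Krt18, a keratin of simple epithelia, had 84625 and 75885, so markers of the labelled cell type were present on both arrays.

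Tissue kallikreins are secreted proteases that cut proteins after basic residues. In the mouse, most members of the family are made by the granular convoluted tubules, the part of the duct system of the submandibular gland that also stores epidermal growth factor (EGF) and renin, and several members were first known as the binding or processing partners of these proteins. These tubules are larger, and richer in kallikreins, in male than in female mice, since androgens promote their differentiation. The members are close copies of each other, which bears on how an oligonucleotide probe can tell them apart, and therefore the probe sequences are shown before the values.

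Every probe is an oligonucleotide of 60 bases. Between neighbouring probes in this family, a few bases make the difference. The probes of Klk1b27 and of its near copy Klk1b11, both in the coding sequence, could be laid over each other along all 60 bases with 6 mismatches, which are in capitals:
Klk1b27: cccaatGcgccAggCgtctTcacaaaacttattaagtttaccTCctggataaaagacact
Klk1b11: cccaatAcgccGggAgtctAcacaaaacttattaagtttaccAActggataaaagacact
The probes of Klk1b4 and Klk1, the gene of the main tissue kallikrein, shared 55 bases with 7 mismatches, again in capitals:
Klk1b4: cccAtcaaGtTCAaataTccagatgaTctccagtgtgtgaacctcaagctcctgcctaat
Klk1: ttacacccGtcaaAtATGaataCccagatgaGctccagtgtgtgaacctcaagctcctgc
The probes of Klk1b5 and Klk1b16 lie at the 3′ end of the transcript, as do 2 probes that the array lists as Egfbp2, an older name of Klk1b26. A stretch of 30 bases around the polyadenylation signal aataaa is given for them, with the bases that differ from the Klk1b5 probe in capitals:
Klk1b5: tcacattgtcccatgttctcaataaagccc
Egfbp2: tcacattgtcccatgttctTaataaagccc
Klk1b16: tcacattgtTccatgttTtcaataaaAccc
In this stretch, Egfbp2 differed from Klk1b5 at 1 position and Klk1b16 at 3. Over the shared parts of the whole probes, the Egfbp2 probes matched the Klk1b5 probe at 91.5% and 90.7% of bases, with 5 mismatches each. Of the 10 members, Klk1b8, Klk1b9, Klk1b21, Klk1b24 and Klk1b26 had no other kallikrein probe within 12 mismatches over at least 40 bases, and the other 5 had at least 1. Whether transcripts of one gene bind to the probe of another was not tested.

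The signals of the 10 members were high on both arrays, and none differed by 2-fold between the ages, except Klk1b9 under 2 other scalings, quantile normalization and loess. The signal of a probe is the intensity of its spot after background subtraction, and its level is given as log2 of the signal over the 75th percentile of all probes on the same array, which was 256 for the young sample and 198 for the aged one. The difference between the ages is the aged minus the young level. The only error that 1 array gives is that of the scanner software's error model, about 10% of each signal, which makes a standard error (SE) of 0.20 for a difference and covers measurement of the spot alone, not animals, cell preparation or labelling. Of the 10 members, 0 were at least 2-fold lower and 0 at least 2-fold higher in the aged sample, against 571 (3.05%) and 284 (1.52%) of the 18745 genes measured on both arrays. A difference below 0 was found for 9 of the 10 (8 if Klk1b26 is given the brightest Egfbp2 probe), where 40.1% of all measured genes were below 0. The median difference of the members was -0.10 (SD 0.27 between genes, n = 10), and that of all measured genes was 0.09. The sign of these small differences depends on how the arrays are set level, since 9 members were below 0 with the 75th percentile, 10 with quantile normalization, loess or the spike-in controls, and 4 with centring on the median.

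Klk1b3 and Klk1b4 were among the strongest signals. Klk1b3 encodes an active protease. Its signal was 260061 in the young and 200345 in the aged sample, rank 25 and rank 35 of 59305 non-control spots, and the difference was -0.0043 (SE 0.20). Klk1b4 encodes a relative without protease activity. It had 92094 and 66009, rank 112 and rank 176, with a difference of -0.11. For both genes the interval of the error model included 0, and the scalings gave values from -0.77 to 0.17 for Klk1b3 and from -0.76 to 0.07 for Klk1b4.

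Klk1b9, Klk1b26 and Klk1b16 are tied by name to EGF or renin. Klk1b9 encodes an EGF-binding protein (type C), and its probe lies at chr7:51235681-51235740 in the build of the files, NCBI37 (mm9). Its signal was 6943 in the young and 3199 in the aged sample, rank 3610 and rank 4840. The difference of -0.75 (95% interval of the error model -1.15 to -0.35), or 0.596 times the young level, was the lowest of the 10 members under each of the 7 scalings, which gave values from -1.10 to -0.57. It was the only member whose interval did not include 0. Klk1b26 encodes a prorenin-converting enzyme that also goes by the name of an EGF-binding protein. Its own probe had 20829 and 12733, rank 1247 and rank 2505, with a difference of -0.34 (SE 0.20) and values from -0.90 to -0.16 over the scalings. Klk1b16, which encodes gamma-renin, had 32846 and 21302, rank 539 and rank 1488, with a difference of -0.25 and values from -0.83 to -0.08. These were the members with lower values in the aged sample under all 7 scalings, together with Klk1b27.

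The other members are serine protease genes that are named here by their position in the family alone. Klk1b5 was the only member with a positive difference: 250558 in the young and 228746 in the aged sample, rank 26 and rank 27, and a difference of 0.24 (95% interval -0.16 to 0.64). It was the highest of the 10 under each scaling, but the value was positive under 4 of 7. Klk1b8 had 124951 and 91056, with a difference of -0.08. Klk1b24 had 139131 and 103323, with a difference of -0.06. Klk1b21 had 42468 and 31636, with a difference of -0.05. The intervals of these 3 included 0, and their values were above 0 under 1 of the 7 scalings, the centring on the median. Klk1b27 was the dimmest of the 10, with 2737 and 1615, rank 5365 and rank 6399, and a difference of -0.39 (95% interval -0.79 to 0.01).

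**Figure D1:**
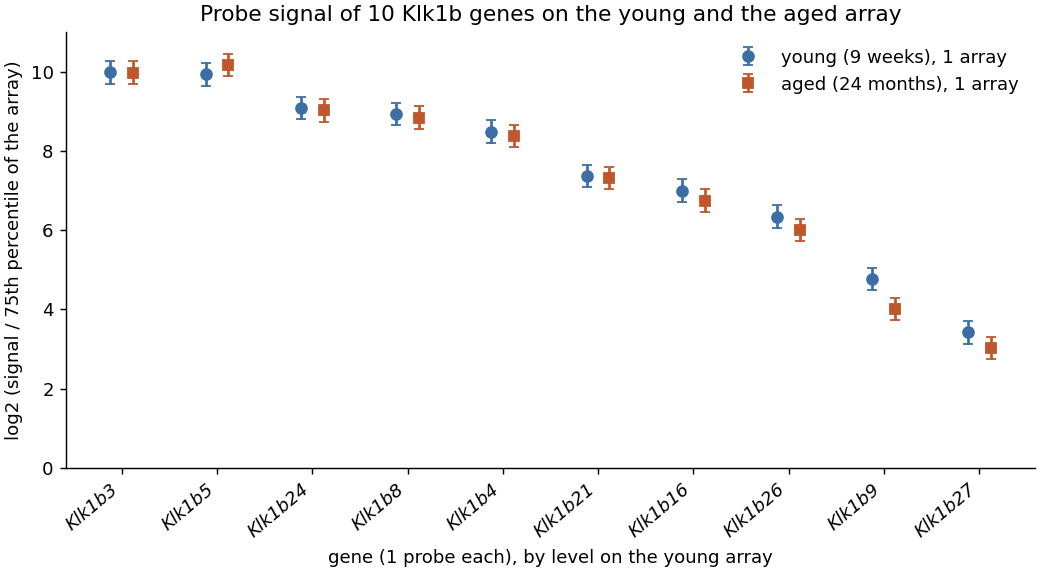
Level of each of the 10 Klk1b genes on the young (circles) and the aged array (squares), as log2 of the signal over the 75th percentile of the array, with 1 probe and 1 array per value. Bars are 95% intervals of the scanner software's error model; levels ran from 9.99 (Klk1b3) to 3.42 (Klk1b27) on the young array and from 10.17 (Klk1b5) to 3.03 (Klk1b27) on the aged array.

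The order of the members was nearly kept between the arrays. Klk1b3 and Klk1b5 were at the top on both arrays and changed places, and Klk1b9 and Klk1b27 were at the bottom on both. Before scaling, the aged signal was 0.461 to 0.913 of the young signal for the 10 members, and all 10 had a later rank on the aged array. On the young array 7 members were among the 1000 strongest spots, and on the aged array 6, since Klk1b16 moved out of this range. The strength of a probe's signal depends on its sequence as well as on the amount of transcript, so the ranks describe probes and not the relative abundance of the proteases. At the 75th percentile scaling, the members with the lower signals had the lower differences (Spearman's rho between mean level and difference 0.915, n = 10 genes that share both arrays, given as a description). With loess, which removes a trend of the difference with the mean signal, rho was 0.406.

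**Figure D2:**
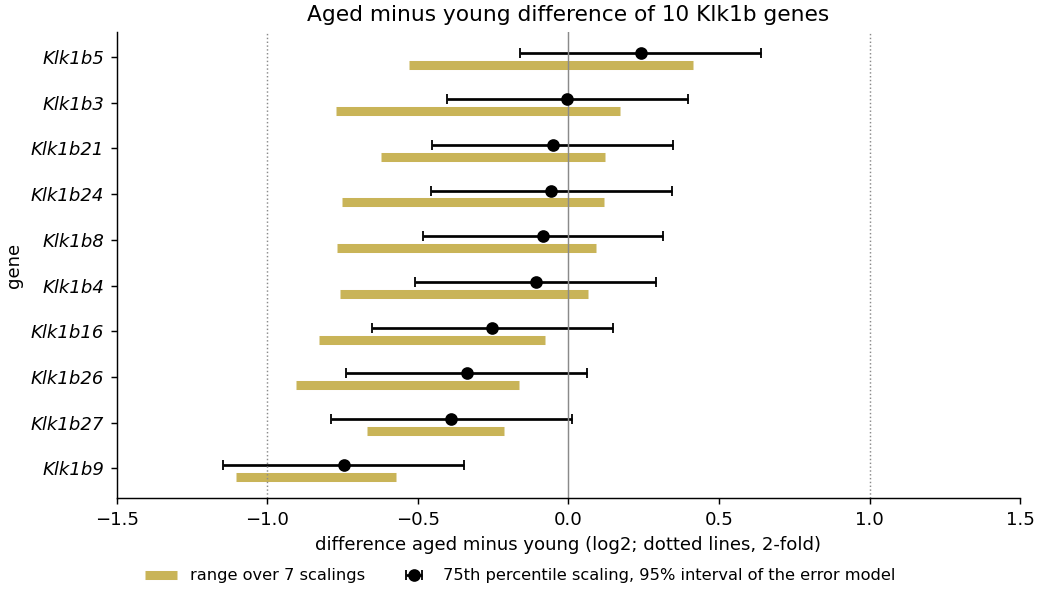
Aged minus young difference (log2) of each of the 10 Klk1b genes, ordered by value. Points and thin bars are the value with the 75th percentile scaling and its 95% error-model interval, thick bars are the range over 7 scalings, and dotted lines mark a 2-fold difference; the interval of Klk1b9 alone lies below 0, and the scaling range of Klk1b9 alone crosses the 2-fold line.

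A contrast between 2 members does not depend on any scaling that adds a constant to an array, so the members were also compared with each other. There were 45 pairs, and in 8 of them the differences were farther apart than the 95% half-width of about 0.57 that the error model gives for a pair. Klk1b9 was below 6 of the other 9 members, by 0.64 (Klk1b4) to 0.99 (Klk1b5). The other 2 pairs were Klk1b27 and Klk1b26, each below Klk1b5, by 0.63 and 0.58. Neighbours in the order of differences were not apart beyond this error in any case. The intervals are not adjusted for the number of pairs. Loess does not add a constant, and with it 1 of the 45 pairs was farther apart than this half-width, Klk1b9 below Klk1b5 by 0.57. With quantile normalization the number was 8, but not all of the same pairs. For comparison, 271 probes with a signal of at least 1000 that were spotted 6 or more times on each array had a median SD of 0.03 between spots, and among 520 genes with several probes of this strength, the median range of the differences between probes of 1 gene was 0.06.

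Of the members, 7 had a mean level within the range of the 500 genes of highest mean level, and these 7 stood lower than most of those genes. The 500 genes, kallikreins left out, had a median difference of 0.46, against 0.09 for all measured genes, and 12.8% of them were below 0. With quantile normalization and loess their medians were -0.04 and -0.13, below the 0.03 and -0.05 of all measured genes. Klk1b5, the highest member, was above 28.6% of these genes, Klk1b3 was above 12.4%, Klk1b21 above 9.2%, Klk1b24 above 9.0%, Klk1b8 above 8.2%, Klk1b4 above 6.2% and Klk1b16 above 1.6%. The 7 were below the median of the 500 genes under each scaling, except Klk1b5 with quantile normalization. The distance between the median of the 7 and that of the 500 genes was -0.51 at the 75th percentile scaling and the same with any other constant, -0.50 with normexp, -0.52 with quantile normalization and -0.63 with loess. Klk1b26, Klk1b9 and Klk1b27 were dimmer than these genes and were not compared with them. Each value comes from the same 2 arrays, and the distances are a description with no test.

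**Figure D3:**
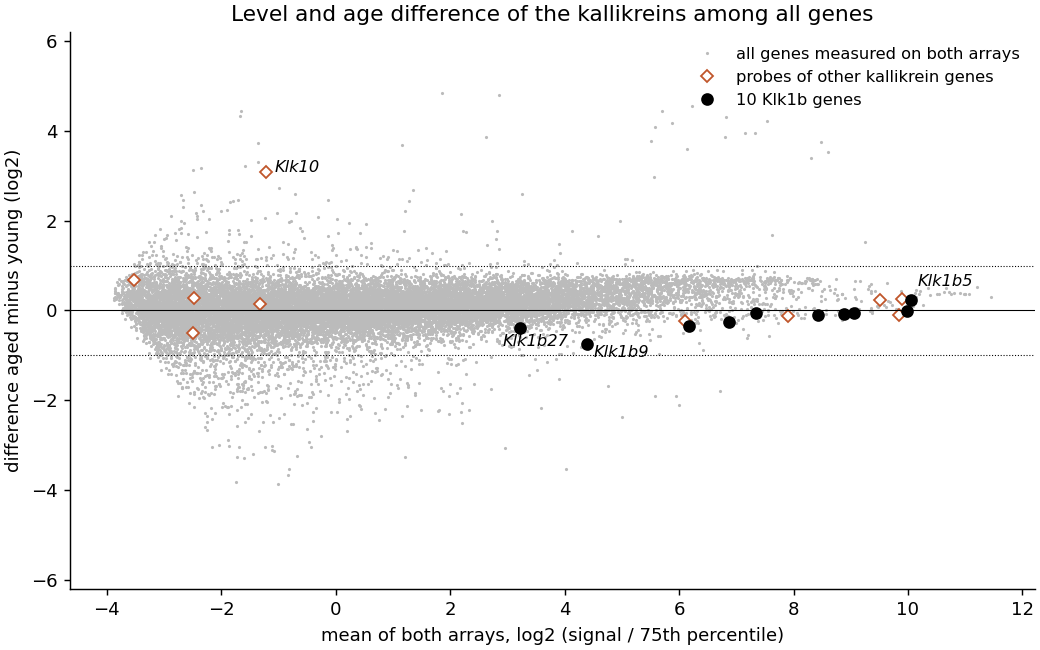
Difference between the ages against the mean level (both log2) for all genes measured on both arrays (grey), the 10 Klk1b genes (black circles) and probes of other kallikreins (open diamonds). Most of the brightest genes lie above 0, and the brightest Klk1b genes lie below the median of 0.46 of the 500 brightest genes; Klk10, with a low signal, is the kallikrein probe farthest from 0.

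For Klk1b26, the answer depended on the probe. The probe listed under this name, at chr7:51271516-51271671, spans 156 bases of the genome and thus crosses an intron. The 2 Egfbp2 probes, at chr7:51272277-51272336 and chr7:51272272-51272331, lie downstream of it, the nearer one starting 601 bases from its end. They had signals of 223058 and 173671 in the young and 205218 and 156647 in the aged sample. Their differences were 0.25 (-0.51 to 0.43 over the scalings) and 0.22 (-0.51 to 0.40), so the sign depended on the scaling. At the 75th percentile scaling, both probes were above the Klk1b26 probe, by 0.59 and 0.56. The first contrast was just beyond and the second just within the half-width of 0.57 for a pair of probes. The distance depended on the scaling. With loess it was smaller, with Egfbp2 at -0.51 and -0.51 and Klk1b26 at -0.82. With quantile normalization it was larger, with Egfbp2 at 0.01 and -0.07 and Klk1b26 at -0.90. In contrast, at the 75th percentile scaling the Egfbp2 probes differed from the Klk1b5 probe, their nearest in sequence, by 0.01 and -0.02. The Klk1b16 probe shares 89.5% and 89.7% of bases with them, and they were above it by 0.50 and 0.48. With the Egfbp2 probes counted as Klk1b26, an alternative chosen after their values were seen, the difference of this gene changed from -0.34 to 0.25, and the median of the members from -0.10 to -0.07. Which transcripts these 2 probes bound was not tested.

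Of the other pairs of similar probes, 3 had close differences, while the Klk1b16 probe was farther from the probes most like it. Klk1b27 and Klk1b11 were at -0.39 and -0.24, Klk1b4 and Klk1 at -0.11 and -0.10, and Klk1b3 and Klk1b22 at -0.0043 and -0.12. The contrasts within these 3 pairs, of at most 0.14 in size, were smaller than the half-width of 0.57. All but 8 of the 45 pairs of members were also within it, so this does not set similar probes apart. Klk1b5 and Klk1b16, which share 83.9% of 56 bases, were farther apart, at 0.24 and -0.25, and this contrast was also within the half-width.

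The genes lie in a row over about 275 kb, from the Klk1b8 probe at chr7:51209619-51209678 to the Klk1 probe at chr7:51484170-51484325. The members at the end next to Klk1, namely Klk1b24, Klk1b3, Klk1b4 and Klk1b5, had levels of 8.49 to 9.99 on the young array and differences between -0.11 and 0.24. Klk1 itself, which releases kinins from kininogens, had 244304 in the young and 176580 in the aged sample, with a difference of -0.10 (values from -0.85 to 0.08 over the scalings). Farther away, 3 members, Klk1b9, Klk1b26 and Klk1b27, lay between Klk1b8 and Klk1b21, whose differences of -0.08 and -0.05 were higher than those of these 3. The Egfbp2 probes, in the same stretch, were higher than both. Of the other family members in this row, Klk1b11 had 19216 and 12532, with a difference of -0.24. Klk1b22, which encodes another EGF-binding protein (type A), had 64046 and 45679, with a difference of -0.12. Klk1b1 was dim, at 54.5 and 29.5, with a difference of -0.51 (95% interval -1.03 to 0.01). Thus the Klk1b genes outside the 10 members also had values below 0 at this scaling, and under centring on the median Klk1 and Klk1b22 were above 0.

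**Figure D4:**
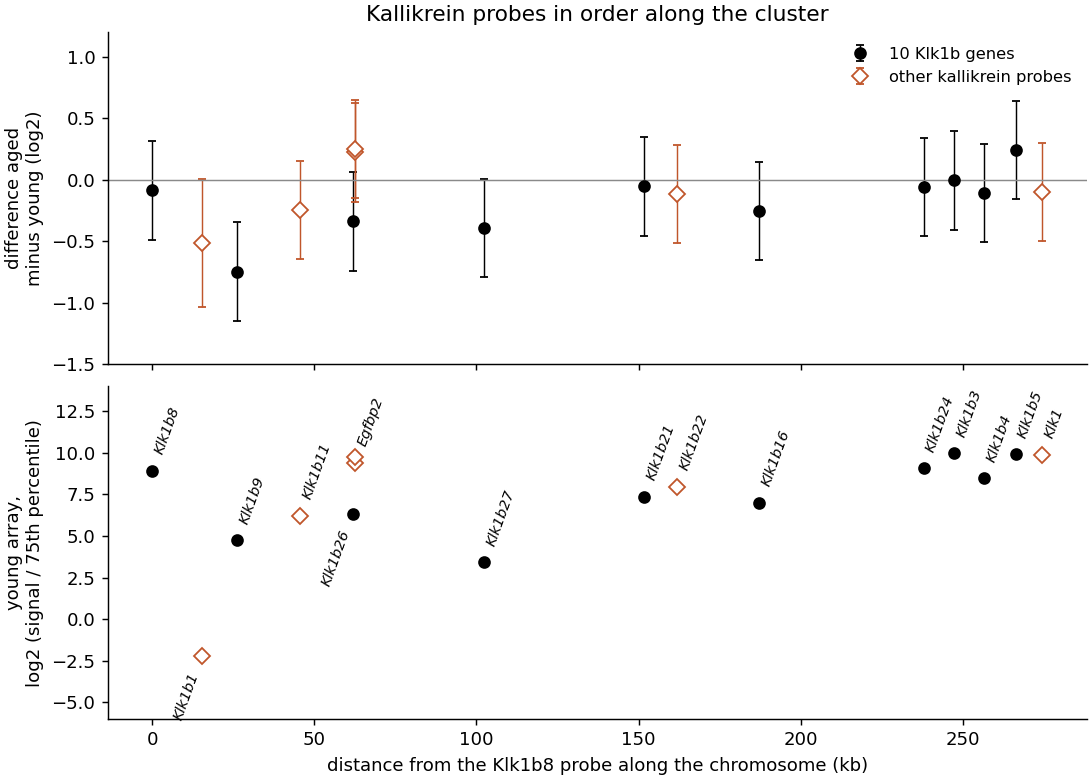
Kallikrein probes well above background on both arrays, in order along the cluster, by distance from the Klk1b8 probe in kb. The upper panel gives the aged minus young difference (log2) with the 95% error-model interval and the lower panel the level on the young array (log2 of signal over the 75th percentile); filled circles are the 10 members, of which Klk1b9 is the lowest in the upper panel, and open diamonds are other kallikreins, with both Egfbp2 probes above the Klk1b26 probe.

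Outside the Klk1b genes, most kallikreins on the array were not clear of the background. Of 16 other kallikrein genes, Klk1b1, Klk1b11, Klk1b22 and Klk1 included, 8 were measured on both arrays, while 8 had no signal clear of the background in either sample (Klk5, Klk6, Klk7, Klk8, Klk9, Klk13, Klk14 and Klk15). The median difference of the 8 measured genes was 0.02, with 4 above and 4 below 0. Of these 8, 1 was at least 2-fold higher, against 1.52% of all measured genes, and 0 were at least 2-fold lower. The exception was Klk10, a kallikrein of stratified and glandular epithelia, with a signal of 37.6 in the young and 248 in the aged sample, a difference of 3.09 or 8.54-fold (95% interval 2.62 to 3.57, and 1.87 to 3.27 over the scalings). Klk4, Klk11 and Klk12 had signals under 100 on both arrays and differences of 0.14, 0.28 and 0.67. The pseudogene Klk1b7-ps had no such signal in either sample.

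Secretory proteins of the granular ducts, the partners of the kallikreins, were listed beside them. Of 7 genes listed, 6 were measured on both arrays, 0 passed 2-fold and 5 were below 0, against 3.05% and 1.52% of all measured genes past 2-fold lower and higher and 40.1% below 0. The median was -0.19 (from -0.45 to -0.02 over the scalings). Egf, the precursor of EGF, had 7872 in the young and 4394 in the aged sample, with a difference of -0.47. This value was below 0 under all scalings. The probes named for renin genes were dim on both arrays. The Ren1 probe had 38.4 and 32.0 (difference 0.11), and the Ren2 probe had 67.9 and 43.4 (difference -0.27). Which renin transcripts these probes bound was not tested. Crisp3, a secretory protein of the same tubules, had 11608 and 8543, with a difference of -0.07, and Tgfa had a difference of -0.12. Crisp1 was clear of the background in the young sample alone.

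Among 10 genes for substrates of the kallikreins and for receptors and enzymes downstream, 5 were measured on both arrays, with differences from -0.64 to 0.39. None of the 5 passed 2-fold, near the 3.05% (lower) and 1.52% (higher) of all measured genes. The kininogen genes Kng1 and Kng2 were not clear of the background in either sample. Agt, the substrate of renin, had 21540 and 15161, with a difference of -0.13. The differences of Ace, which degrades kinins, and of the kinin receptor gene Bdkrb1 were 0.39 and 0.10. That of the EGF receptor gene Egfr was -0.08. Bdkrb2, the other kinin receptor gene, was clear of the background in the aged sample alone, at 25.1 and at least 2.31-fold higher at the 75th percentile scaling (its difference as given ran from 0.86 to 3.58 over the scalings). F2rl1, a receptor cleaved by serine proteases, was so in the young sample alone.

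**Figure D5:**
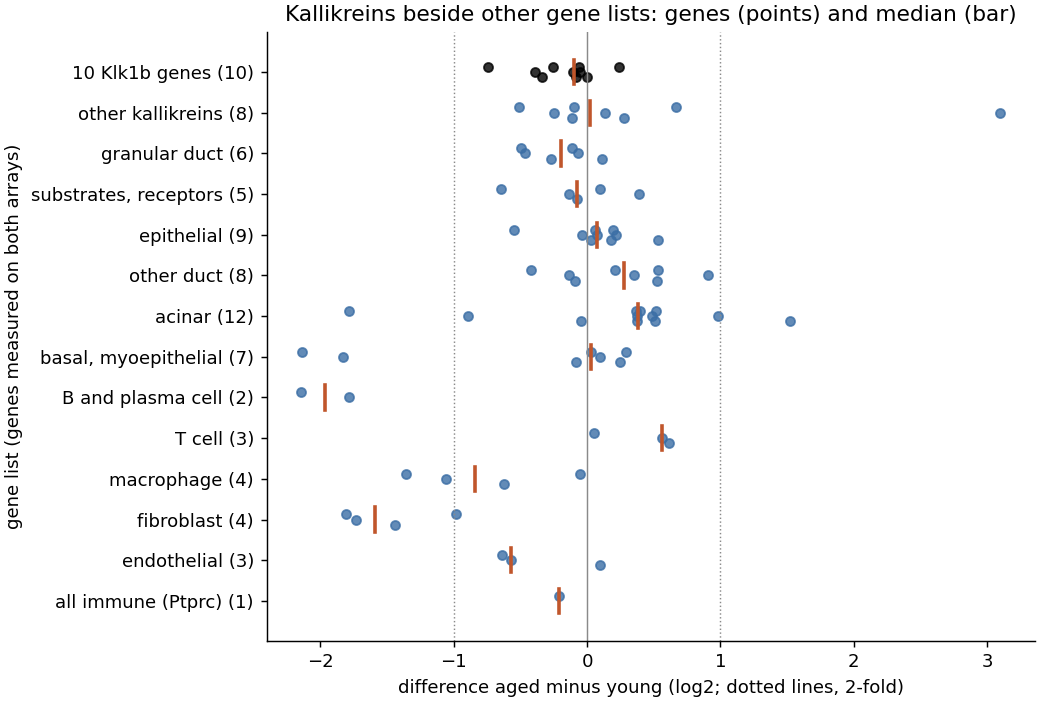
Aged minus young difference (log2) of the genes measured on both arrays in each list, with the number of genes in parentheses (points are genes, bars are medians, dotted lines mark 2-fold). The 10 Klk1b genes, the granular duct genes and the substrates and receptors lie within the 2-fold lines. So do the epithelial, other duct, T cell and endothelial lists. Fibroblast, macrophage and B and plasma cell lists have members far below 0, as does the basal and myoepithelial list (Cnn1, -2.14). The acinar list has 1 gene past 2-fold in each direction.

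Since the cells were collected in bulk, fewer cells of a type and less RNA per cell cannot be told apart. General epithelial genes had a median difference of 0.07 over 9 measured genes (-0.23 to 0.25 over the scalings), with Epcam at 0.20 (-0.06 to 0.37). Of the 9, 7 were above and 2 below 0, from -0.55 (Cldn4) to 0.535 (Krt7). Krt19, dim at 34.2 and 12.4, was clear of the background in the young sample alone. It was at least 1.85-fold lower in the aged sample at the 75th percentile scaling (its difference as given ran from -1.35 to -0.0055 over the scalings). Other duct genes had a median of 0.28 over 8 (0.004 to 0.45 over the scalings). For genes listed as acinar the median was 0.38 over 12, but ran from -0.44 to 0.56 over the scalings. Of the 12, 1 was past 2-fold in each direction, against 1.52% (higher) and 3.05% (lower) of all measured genes. These were Bpifa2 with 1.52 (0.81 to 1.70 over the scalings) and Smgc with -1.79 (-2.34 to -1.61). Whether acinar or duct cells made these transcripts in the 2 samples was not tested. The summed signal of the acinar list was 2808867 in the young and 2971702 in the aged sample, with the strongest signal from the Dcpp2 probe, while that of the 10 Klk1b genes was 972618 and 759963. Over the 75th percentile of its array, the sum of the acinar list was 10965 and 15013, and that of the Klk1b genes 3797 and 3839. Basal and myoepithelial genes had a median of 0.03 over 7 (-0.26 to 0.21 over the scalings), with Cnn1 at -2.14 and Myh11 at -1.83 (up to -0.49 for Myh11 over the scalings).

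Markers of other cell types were also present in both samples. The medians of the fibroblast, macrophage, B and plasma cell and endothelial genes were below 0 under each of the 7 scalings, and that of the T cell genes was above 0. Of 5 fibroblast genes, 3 of the 4 measured on both arrays were at least 2-fold lower in the aged sample, against 3.05% of all measured genes, and 1 of the 3, Col1a1, was not past 2-fold under every scaling (-1.81, up to -0.78). Pdgfra, clear of the background in the young sample alone, was at least 2.45-fold lower at the 75th percentile scaling (its difference as given ran from -1.55 to -0.19 over the scalings). The summed signal of this list was 4605 in the young and 1658 in the aged sample, with the strongest signal from the Dcn probe (3475 and 1360). Macrophage genes had a median of -0.84 over 4, with 2 at least 2-fold lower, against 3.05% of all measured genes. Of these 2, Cd68 (-1.06, up to -0.89) was not past 2-fold under every scaling. The sum was 22670 and 14268, most of it from the Itgam probe, whose difference was -0.05 (-0.61 to 0.12 over the scalings). The B and plasma cell genes Jchain and Cd79b had differences of -1.78 and -2.14 (up to -1.51 and -0.87 over the scalings), with a list sum of 760 and 163, most of it Jchain. Of the other genes of that list, Cd79a and Mzb1 were not clear of the background, and Ms4a1 was so in the young sample alone. Endothelial genes had a median of -0.57 over 3, with a sum of 612 and 332, most of it Kdr. T cell genes had a median of 0.56 over 3, with a sum of 2614 and 2441, or 10.2 and 12.3 over the 75th percentile of its array. The strongest signal was from the Cd4 probe, with a difference of 0.05 (-0.20 to 0.23 over the scalings). Cd8a was not clear of the background in either sample. Ptprc, carried by all immune cells, was at -0.21. The part of cell composition in the differences of the kallikreins was not tested.

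The promoters of the 10 members were compared. RefSeq's table for GRCm38.p6 held all 10, as 250 bases before and 50 after the annotated start. The letters TTTAAA, searched on the sense strand in the 60 bases before the start, were found in 9 of the 10 members, against 2.79% of 32851 promoters, and the letters TATAAA in 0 of 10, against 2.87%. TTTAAA was also found in the other Klk1b genes of the row, Klk1b11, Klk1b22 and Klk1b1. The 60 bases before the start are given for the member with the highest difference, the member with the lowest, the dimmest member, the member without TTTAAA in this window, and Klk1, with TTTAAA in capitals. They lie on the plus strand at chr7:44216414-44216473, chr7:43976001-43976060, chr7:44052230-44052289, chr7:44102232-44102291 and chr7:44225300-44225359:
Klk1b5: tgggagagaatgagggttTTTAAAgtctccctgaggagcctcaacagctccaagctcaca
Klk1b9: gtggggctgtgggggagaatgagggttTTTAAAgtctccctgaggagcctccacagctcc
Klk1b27: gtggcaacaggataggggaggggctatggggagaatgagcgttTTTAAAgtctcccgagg
Klk1b21: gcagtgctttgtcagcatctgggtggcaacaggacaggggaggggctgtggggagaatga
Klk1: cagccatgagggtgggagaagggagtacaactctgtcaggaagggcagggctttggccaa
In Klk1b21 the letters began 4 bases after the annotated start, and in the other 9 members 13 (Klk1b3) to 48 (Klk1b4) bases before it. The half-site AGAACA, bound by androgen and glucocorticoid receptors, occurred on either strand of the 300 bases in 2 of 10 members (Klk1b3 and Klk1b24) against 19.0% of all promoters.

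By difference alone, the genes nearest to the members' median among 489 other genes of the 500 strongest signals on the young array were Gm10856, the transcript TC1653005, Smarcc1, Clca3a1 and A330076C08Rik. Their differences lay between -0.10 and -0.09 over the 2 arrays.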

How the data were processed

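The authors hybridized Cy3-labelled RNA to Agilent 8 x 60K mouse arrays. The deposited scanner files hold 1 background-corrected processed intensity per spot (Agilent Feature Extraction 12.0.3.1), with no scaling between arrays. In the authors' processed table (GeneSpring), each array's intensities were divided by a constant, 229 (young) or 176 (aged). Here, the deposited intensity was put on a log2 scale and set against the 75th percentile of the array, taken here over 59305 non-control spots. The study's methods name the 75th percentile and the 2-fold threshold, but not the spots, and its constants differ from those used here. Spots marked as outliers on either array (90 and 93) were dropped, and repeated spots were averaged. Probes had to be well above background on 1 array or both, and a gene was represented by its brightest such probe. Where only 1 array measured a probe, the other array was given its lowest signal well above background (14.1 young, 14.3 aged), or the probe's own if higher, which yields a lower limit. No spot was saturated. Of 56597 probes, 33762 were named through RefSeq (GRCm38.p6), which served for names and promoter sequences, and the others kept the file's name. The shares of spots well above background were 55.4% (young) and 50.8% (aged). The number of arrays (1 per age) limits the precision.

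Intervals are 1.96 times the SE of the software's error model. The 7 scalings were the 75th percentile over all probes, the 75th percentile over the probes measured on both arrays, centring on the median, quantile normalization, loess (span 0.7), spike-in controls and normexp (offset 50). The software was R 4.3.3 with limma 3.58.1 and Python 3.11.15 with numpy 2.4.6, pandas 2.3.3 and matplotlib 3.10.9, and the calculation of the differences was tested on simulated data. The 10 genes, the lists and the alternatives were chosen with earlier results of these data known. All 10 members were named by rule, as were the genes of the lists, of which some are not reported here, and the 5 genes nearest to the members' median.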

Additional observations from a re-analysis of the deposited data

How the results depend on the processing

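With 1 array per age, no array could be left out. No paired analysis was possible because each age has 1 array. The members' count of 0 at least 2-fold lower became 1 (Klk1b9) with quantile normalization and 1 (Klk1b9) with loess, and the count of 0 at least 2-fold higher stayed at 0 in each alternative. The members' median of -0.10 became -0.58 with quantile normalization, -0.76 with loess and -0.35 with the spike-in controls, and turned to 0.08 with centring on the median. Of 121 values of single members under the alternatives, 30 moved by more than 1 SE, namely 10 with loess, 10 with the spike-in controls, 9 with quantile normalization and 1 (Klk1b26) with the Egfbp2 probes. The median of the other kallikreins, 0.02, became -0.19 with loess and -0.23 with the spike-in controls, and that of the granular duct genes, -0.19, became -0.45 with the spike-in controls. Among all genes, the 284 at least 2-fold higher became 464 with centring on the median, 151 with the spike-in controls, 107 with normexp and 1685 with no filter on dim probes, and the 571 at least 2-fold lower became 918 with the spike-in controls, 209 with normexp and 2416 with no filter. The cause was not tested, other than that the last setting adds probes near background.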
